A study of Mus musculus with 5 samples.

Results

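The 10 genes described here are the Notch receptors Notch1, Notch2 and Notch3, the ligands Jag1, Jag2 and Dll1, the DNA-binding factor Rbpj, and the target genes Hes1, Hey1 and Heyl, chosen by symbol from 27729 genes in the deposited tables. All 10 were found by their Ensembl identifiers. RNA was measured in mouse embryonic fibroblasts (MEFs) of the ICR strain on day 0 in serum medium and on days 2, 5, 10 and 14 of a serum-free medium that the study calls 5C and the labels call 6C. 5C medium holds N2 supplement, bFGF, LIF, vitamin C and 2-mercaptoethanol in DMEM/F12 and is used by the study to turn MEFs into neuron-like cells. The labels name no transgene, and the MEFs are a primary culture made from embryos without head and inner organs, so several cell types can be present. There was 1 library per time point and no replicate, so no p-value is given, and every interval covers counting error only. Wherever 5 values follow each other, they belong to the libraries in order of time, from MEFs to day 14. The last library is labelled day 14, whereas the treatment text in the labels gives day 15 as the last time.

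Notch receptors are membrane proteins that are cut after a ligand on a neighbouring cell binds them. An ADAM protease makes the first cut and γ-secretase the second, which frees the intracellular domain to enter the nucleus and bind Rbpj. Rbpj with this domain activates Hes and Hey genes such as Hes1, repressors of the basic helix-loop-helix class that keep neural progenitors from becoming neurons. The study reported Notch activation during the conversion, especially at a high initial cell density. Its evidence included the intracellular domain in the nucleus on day 10, a protein measure that RNA levels do not give. Its later experiments gave cells a γ-secretase inhibitor or Jagged1, the ligand that Jag1 encodes.

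The deposited expected counts, which are RSEM estimates of the reads from each gene, had totals from 2253748 (day 2) to 3890334 (day 0). Normalized counts are expected counts divided by TMM library sizes and set to a common depth. A change is the log2 ratio of normalized counts plus a pseudocount of 1. A gene was called higher or lower where this ratio passed 2-fold, and 13346 genes with 10 or more expected counts in at least 1 library were compared. Of the 10 Notch genes, 9 passed this minimum. Dll1 did not and is given by its counts.

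On day 2, 1 of the 9 genes was called higher (Rbpj) and 3 were called lower (Jag1, Hey1 and Heyl), beside 15.2% of all genes higher and 13.1% lower. On day 5, 5 were higher (Notch1, Notch3, Jag2, Rbpj and Heyl) and 3 were lower (Jag1, Hes1 and Hey1), beside 20.2% and 13.6% of all genes. On day 10, 4 were higher (Notch1, Notch3, Jag2 and Heyl) and the same 3 were lower, beside 28.7% and 22.3%. On day 14, Notch1 and Heyl were higher and Jag1, Hes1 and Hey1 were lower, beside 24.5% and 19.9%. Relative to genes of the same length, as described after the receptors, the counts were 1 and 3 on day 2, 4 and 3 on day 5, 3 and 3 on day 10, and 2 and 3 on day 14. Rbpj on day 5, Notch3 on day 10 and Hes1 on day 14 then lost their calls, and Jag2 was lower on day 14. That Jag2 call is 1 read on day 0 against 0 on day 14, too few to show a fall. All shares of all genes, here and below, are for calls not taken relative to length. Counts relative to length thus have no such share beside them. With 9 genes, these counts are descriptions and do not set the list apart from other genes. In bulk RNA, fewer cells of a type and less RNA per cell cannot be told apart.

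**Figure D1:**
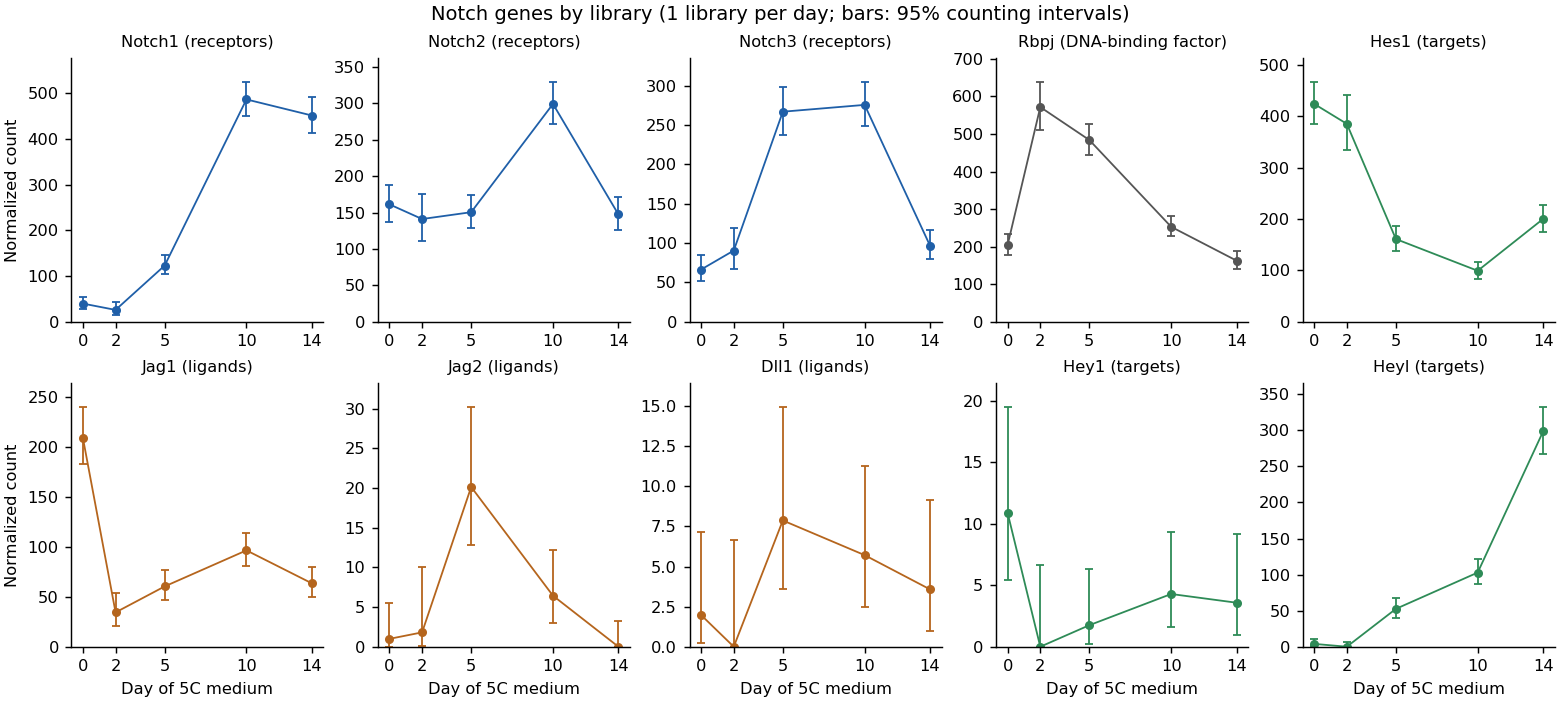
Normalized count (y axis, linear from 0, a separate scale for each gene) of the 10 Notch genes by day of 5C medium (x axis). Each point is 1 library and bars are exact Poisson 95% intervals of the counts. Notch1 was highest on days 10 and 14, Rbpj on day 2, Hes1 on days 0 and 2, and Heyl on day 14, while Jag2, Dll1 and Hey1 rest on few reads in every library.

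The receptors differed in when they were high. Notch1 (ENSMUSG00000026923, GRCm38 chr2:26457903-26516663, minus strand), which controls fate choices in many progenitor cells, had 40.3, 14.3, 141, 682 and 505 expected counts, or 39.8, 25.9, 123, 487 and 452 normalized counts. The day 10 and day 14 libraries were high and those of days 0 and 2 low, with day 5 between them and no overlap of the counting intervals between these 3 levels. The log2 change from day 0 was 1.60 (95% counting interval 1.12 to 2.18) by day 5, 3.58 (3.16 to 4.12) by day 10 and 3.47 (3.05 to 4.01) by day 14. Notch1 rose 4.61-fold from day 2 to day 5 and 3.93-fold from day 5 to day 10. From day 10 to day 14 its log2 change was -0.11, with an interval of -0.28 to 0.06 that includes 0.

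Notch3 (ENSMUSG00000038146, chr17:32120820-32166852, minus strand), which is known from smooth muscle cells and pericytes, had 66.3, 90.5, 267, 276 and 96.5 normalized counts. It was high in the 2 middle libraries and low in the others. The log2 change from day 0 was 1.99 (1.62 to 2.41) by day 5 and 2.04 (1.68 to 2.45) by day 10. From day 10 to day 14 Notch3 fell 2.84-fold, and the log2 change from day 0 that was left, 0.54 (0.09 to 1.00), did not pass 2-fold.

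Notch2 (ENSMUSG00000027878, chr3:98013527-98150361, plus strand), which shares its structure with Notch1, had 161, 141, 151, 299 and 147 normalized counts. Only the day 10 library stood above the others, whose counting intervals overlapped. It was not called on any day against day 0, with a log2 change of 0.89 (0.63 to 1.16) by day 10. From day 10 to day 14 it fell 2.02-fold, with a log2 interval of -1.29 to -0.76 that holds the threshold. Thus 1 receptor of the 3, Notch1, was still called higher than on day 0 in the last library.

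Gene length has to be read beside these values, because the libraries differed by length over all genes. On day 10 the median log2 change of all genes compared was 0.14, but with the genes split by length into 10 equal groups it was -1.47 in the group of shortest transcripts and 1.04 in that of the longest. The 3 receptors are in the longest group, in which 52.1% of genes were called higher on day 10 and 34.8% on day 14. Relative to the median of this group, Notch1 was higher by a log2 value of 2.54 on day 10 and 2.91 on day 14, Notch3 by 1.00 (0.995, just under 2-fold) on day 10, and Notch2 had a relative value of -0.16 on day 10. Among the targets, Hes1 is in the second shortest group, where the median was -0.86 on day 10 and 45.8% of genes were called lower. What made the libraries differ by length was not tested.

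**Figure D2:**
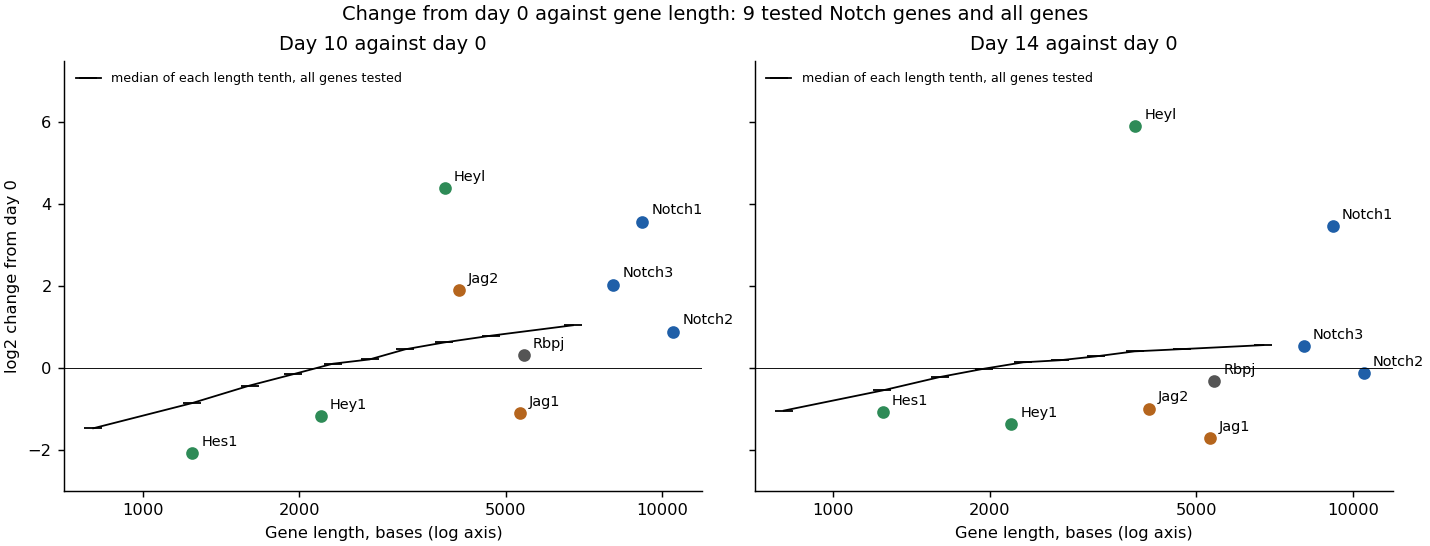
log2 change from day 0 (y axis) against gene length in bases (x axis, log scale) on day 10 (left) and day 14 (right) for the 9 Notch genes compared, coloured by role (blue receptors, brown ligands, grey Rbpj, green targets). The black line joins the medians of the 10 length groups over all genes compared, which run from -1.47 to 1.04 on day 10 and from -1.04 to 0.56 on day 14, and Notch1 and Heyl lie above the line and Jag1 and Hes1 below it on both days.

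The ratio of 2 receptors within a library depends neither on the scaling between libraries nor, since all 3 are among the longest genes, much on length. Notch1 reads per Notch2 read were 0.247 (95% interval 0.169 to 0.349) at day 0, 0.184 (0.0938 to 0.319) at day 2, 0.818 (0.651 to 1.03) at day 5, 1.63 (1.44 to 1.84) at day 10 and 3.06 (2.56 to 3.67) at day 14. Days 0 and 2 overlapped, and each later library lay above the one before it. Notch3 reads per Notch2 read were 0.411, 0.641, 1.77, 0.921 and 0.655, highest on day 5 (1.47 to 2.15).

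Levels of different genes were compared per length, as TPM, which divides reads by gene length and sums to 1000000 in each library, and each sum below takes in Notch4, Dll3, Dll4, Hes2, Hes3, Hes5, Hes6, Hes7 and Hey2 as further family members. Notch1 made up 14.9%, 9.91%, 20.9%, 46.5% and 60.2% of the receptor TPM. Notch2 made up 54.6% on day 0 and 16.6% on day 14, and Notch3 had its highest share, 53.5%, on day 5. The receptor with the highest level per length was thus Notch2 on day 0, Notch3 on day 5 and Notch1 on days 10 and 14. On day 2 Notch2 had 3.91 TPM and Notch3 3.28 TPM, from 78 and 50 reads, which are not apart beyond counting error. The receptor TPM summed to 9.85 on day 0 and to 98.1 on day 10, but the median log2 change in TPM of all genes compared was itself 1.09 on day 10. Shares within a library are free of that shift. Notch4, an endothelial receptor, had 2, 1, 1, 3 and 8 expected counts, and its share of 9.07% on day 14 rests on those 8 reads and on a short transcript length that RSEM assigned to them.

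**Figure D3:**
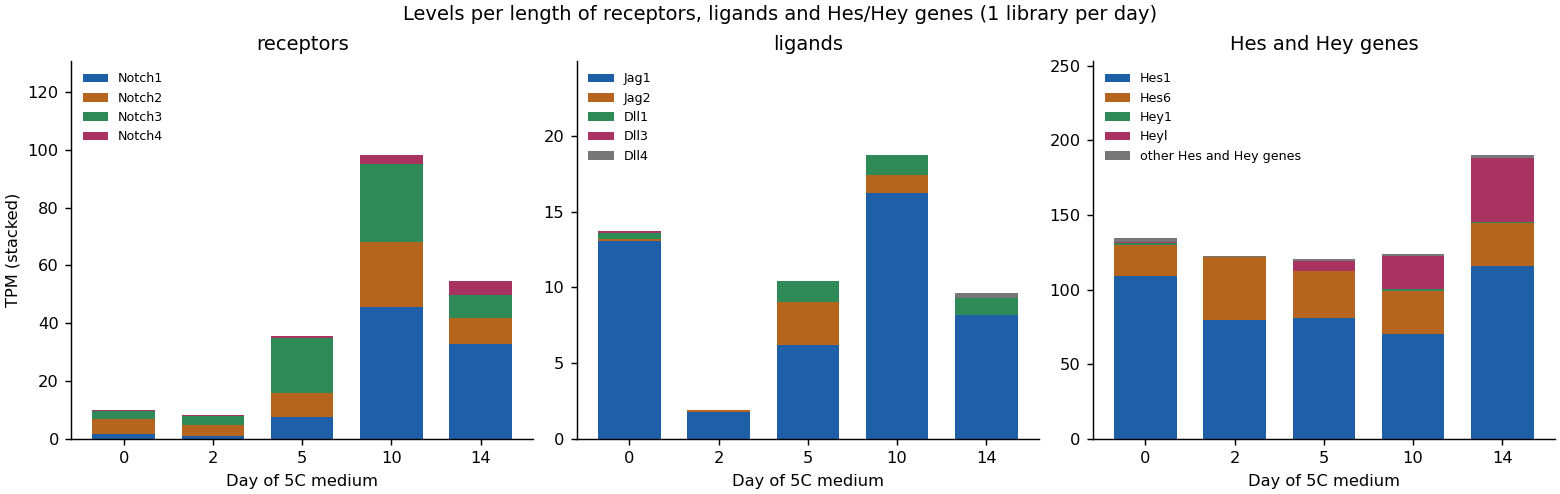
TPM (y axis, stacked bars from 0, own scale in each panel) of receptors, ligands and the Hes and Hey genes by day of 5C medium, with 1 library per bar, 1 colour per gene and Hes2, Hes3, Hes5, Hes7 and Hey2 as 1 grey segment. Notch1 was the largest part of the receptor bar on days 10 and 14, and Jag1 of the ligand bar in every library. Hes1 was the largest part of the bar of Hes and Hey genes, which includes Hes6, in every library, and Heyl reached 22.4% of it on day 14.

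Jag1 (ENSMUSG00000027276, chr2:137081456-137116644, minus strand), a ligand of the Jagged family, was the one ligand with many reads. Its normalized counts were 209, 34.4, 60.4, 96.5 and 63.5, so day 0 was above all later libraries and day 2 was lowest. The log2 change from day 0 was -2.57 (-3.37 to -1.93) by day 2, -1.78 (-2.21 to -1.40) by day 5, -1.11 (-1.44 to -0.80) by day 10 and -1.71 (-2.13 to -1.33) by day 14. No step after day 2 passed 2-fold. In TPM the day 10 change was 0.29, of the opposite sign, and -0.81 relative to the shift of all genes in TPM. Jag1 held between 59.3% and 95.2% of the ligand TPM in the 5 libraries. Notch1 reads per Jag1 read went from 0.190 (0.131 to 0.266) at day 0 to 5.05 (4.19 to 6.12) at day 10 and 7.12 (5.54 to 9.25) at day 14.

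The other ligands were scarce. Jag2 (ENSMUSG00000002799, chr12:112907819-112929776, minus strand), the second Jagged ligand, had 1, 1, 23, 9 and 0 expected counts, with its highest level on day 5. Its log2 change from day 0 to day 5 was 3.41, with a counting interval of 1.72 to 9.71, and the interval of its day 10 change, -0.15 to 8.15, includes 0. From day 10 to day 14, when no read was left, it was at least 2.40-fold lower against a floor of 3 counts in the day 14 library. Dll1 (ENSMUSG00000014773, chr17:15367354-15376872, minus strand), a Delta-like ligand known from neural progenitors, had 2, 0, 9, 8 and 4 expected counts, too few for a call. Dll3 had at most 1.07 and Dll4 at most 2 expected counts in any library, and the most abundant ligand-like gene, Dlk1, is given with the rest of the pathway.

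Rbpj (ENSMUSG00000039191, chr5:53466152-53657362, plus strand), through which all 3 receptors act on DNA, had its highest level early. Its normalized counts were 204, 572, 484, 253 and 163. On this scale days 2 and 5 lay above the others, and day 14 was lowest. In TPM the values were 13.3, 30.7, 51.4, 36.9 and 19.5, so day 5 was highest and day 0 lowest. The log2 change in TPM was 1.41 by day 10 and 0.52 by day 14, or 0.32 and -0.27 relative to the shift of all genes in TPM. With total counts the day 14 change was 0.03, so its sign depends on the scaling. In normalized counts the changes were as follows. The log2 change from day 0 was 1.48 (1.23 to 1.75) by day 2 and 1.24 (1.01 to 1.48) by day 5, and it was 0.31 (0.06 to 0.57) on day 10 and -0.32 (-0.62 to -0.03) on day 14, neither past 2-fold. Rbpj was therefore high on day 2, when Notch1 was still low, and on day 5, when Notch1 was itself called higher. In normalized counts Rbpj was low again on day 14, when Notch1 was high.

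TGGGAA is the core of the sequence that Rbpj binds, and it was searched on both strands (its reverse complement is TTCCCA) in RefSeq promoter windows of GRCm38.p6, each from 250 bases before to 50 bases after a gene start. These letters occur in 25.6% of 32851 such windows, and 3.79% hold 2 or more sites. Of the 10 genes, 7 had a window, and Hes1, Hey1 and Heyl had none. The window of Rbpj itself held 2 sites, 149 and 65 bases before the first of its 2 listed starts, and those of the 3 receptors and 3 ligands held none. Hes5 and Hey2, which are textbook targets of the pathway, also had 2 sites each, 226 and 82 bases before the start in Hes5 and 207 and 3 bases before it in Hey2. Read on the strand of TGGGAA, the base before it was G in the Hes5 and Hey2 sites and C in the Rbpj sites, so these sites differ in that base. The windows of Rbpj (chr5:53590096-53590365, plus strand, an inner start of the gene), Hes5 (chr4:154960673-154960942, plus strand) and Hey2 (chr10:30842764-30843033, minus strand) are shown 5′ to 3′ as far as 20 bases after the start, because they pair a gene that was high early with targets that were almost without reads, and capitals mark TGGGAA or TTCCCA.
Rbpj: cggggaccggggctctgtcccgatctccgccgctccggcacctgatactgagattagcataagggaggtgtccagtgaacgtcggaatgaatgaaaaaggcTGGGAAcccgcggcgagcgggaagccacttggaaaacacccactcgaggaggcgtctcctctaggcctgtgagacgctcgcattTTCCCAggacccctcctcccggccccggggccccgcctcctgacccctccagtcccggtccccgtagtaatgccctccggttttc
Hes5: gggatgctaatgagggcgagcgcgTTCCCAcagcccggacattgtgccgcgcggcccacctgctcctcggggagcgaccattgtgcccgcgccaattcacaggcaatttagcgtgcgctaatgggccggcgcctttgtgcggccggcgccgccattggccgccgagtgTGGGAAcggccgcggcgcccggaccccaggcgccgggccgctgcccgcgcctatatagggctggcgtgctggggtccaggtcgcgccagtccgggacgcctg
Hey2: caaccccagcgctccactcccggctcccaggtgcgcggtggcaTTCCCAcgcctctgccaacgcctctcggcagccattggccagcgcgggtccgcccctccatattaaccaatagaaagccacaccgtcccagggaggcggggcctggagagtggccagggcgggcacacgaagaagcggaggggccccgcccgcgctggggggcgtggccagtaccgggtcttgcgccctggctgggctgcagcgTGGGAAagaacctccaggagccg
Among the other feedback and target genes searched, Lfng had 2 sites, Hes7 had 1, and Nrarp and both windows of Hes6 had 0.
A match of letters is a description of the window and no evidence of binding in these cells. Hes5 had 0, 0, 0, 0 and 1 expected counts, and Hey2, a repressor known from heart and vessels, had 13, 1, 1, 2 and 1. Both were thus at or near 0 from day 2 on, while Rbpj had 182 to 553 expected counts.

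The target genes did not move together. Hes1 (ENSMUSG00000022528, chr16:30064384-30067796, plus strand), the repressor most often read as a sign of Notch activity, had 424, 385, 161, 99.3 and 200.2 normalized counts. Days 0 and 2 were high, with overlapping intervals, and day 10 was lowest. The log2 change from day 0 was -0.14 (-0.38 to 0.10) by day 2, -1.39 (-1.66 to -1.15) by day 5, -2.08 (-2.38 to -1.82) by day 10 and -1.08 (-1.32 to -0.85) by day 14. Hes1 fell 2.38-fold from day 2 to day 5 and rose 2.01-fold from day 10 to day 14, where the log2 interval of 0.70 to 1.33 holds the threshold. Relative to genes of its length, the values from day 0 were -1.02 on day 5, -1.22 on day 10 and -0.53 on day 14. Only the last of them was under 2-fold. Relative to length, the step to day 5 was -0.81 and the step to day 14 was 0.65, and neither passed 2-fold. In TPM the day 10 change was -0.62 and the day 14 change was 0.085, the latter of the opposite sign and -0.70 relative to the shift of all genes.

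Heyl (ENSMUSG00000032744, chr4:123233556-123249875, plus strand), a Hey-type repressor, had 4, 0, 60, 144 and 334 expected counts, or 3.96, 0, 52.5, 103 and 299 normalized counts. The 3 late libraries stood apart from one another and from days 0 and 2 without overlap. From day 0 the log2 change was 3.43 (2.30 to 5.65) by day 5, 4.39 (3.31 to 6.59) by day 10 and 5.92 (4.87 to 8.12) by day 14, which is higher than in 99.2% of all genes compared. From day 2, when no read was counted, to day 5 Heyl was at least 9.67-fold higher against a floor of 3 counts on day 2. From day 10 to day 14 Heyl rose 2.88-fold. Its call as lower on day 2 rests on 4 reads on day 0 and is below what the day 2 library can show.

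Hey1 (ENSMUSG00000040289, chr3:8663359-8667256, minus strand), another Hey-type repressor, had 11, 0, 2, 6 and 4 expected counts. It was at least 2.01-fold lower on day 2 than on day 0 against the floor of 3 counts. On day 5 its log2 change was -2.11 (-5.85 to -0.44), and the intervals on day 10 (-3.06 to 0.22) and day 14 (-3.71 to 0.15) include 0. So Hey1 was scarce in all 5 libraries, and of these 3 targets only Hes1 and Heyl had reads enough for a firm value. Among the other Hes genes, Hes6, a Hes protein known for promoting neuronal differentiation, had 81, 107, 85, 68 and 69 expected counts. It was higher on day 2, with a log2 change of 1.26 (0.84 to 1.71), and was not called against day 0 later.

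**Figure D4:**
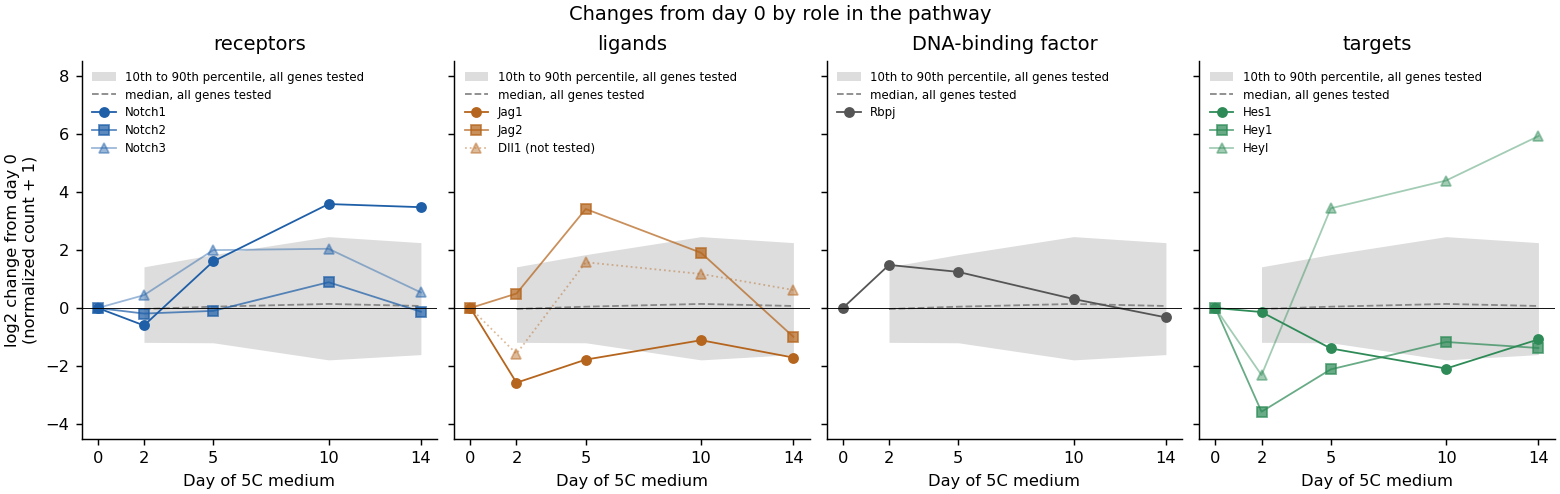
log2 change from day 0 (y axis) by day of 5C medium (x axis) of receptors, ligands, Rbpj and targets, with 1 library per day. The grey band spans the 10th to 90th percentile and the dashed line the median of the 13346 genes compared, the dotted line is Dll1, which had too few reads for a call, and Notch1 and Heyl lie above the band on days 10 and 14 while Hes1 lies below it on days 5 and 10.

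Receptors and targets were then set against each other. On day 10 the median log2 change was 2.04 over the 3 receptors (from 0.89 to 3.58), 1.17 over the 3 ligands (from -1.11 to 1.90) and -1.17 over the 3 targets (from -2.08 to 4.39), beside 0.14 over all genes. The ligand and target medians are the values of Dll1 and Hey1, which had 8 and 6 reads on day 10, and both reversed with a minimum of 50 counts, to -1.11 for the ligands (Jag1 alone) and 1.15 for the targets (Hes1 and Heyl). Dll1 has no length group, so relative to length only Jag1 and Jag2 count, whose median was 0.40 before and -0.31 after length was taken off. Within the targets, Hes1 and Heyl lay on opposite sides of 0 on days 5, 10 and 14.

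Hes1 reads per Notch1 read were 10.7 (7.75 to 15.2) at day 0, 14.9 (8.87 to 28.3) at day 2, 1.31 (1.04 to 1.64) at day 5, 0.204 (0.169 to 0.245) at day 10 and 0.443 (0.377 to 0.520) at day 14. The first 2 libraries overlapped, the other 3 did not overlap with any, and day 10 was lowest. Per length, the ratio of TPM was 74.0, 99.4, 10.9, 1.54 and 3.52, so Hes1 had the higher level per length in every library. This ratio of a short to a long gene carries the difference by length: the log2 ratio changed by -5.71 from day 0 to day 10, of which the medians of the 2 length groups differ by -1.90, leaving -3.80. On the step to day 14 it changed by 1.12, with a difference of 0.84 between the group medians, leaving 0.28. Heyl reads per Rbpj read were 0.0194, 0, 0.108, 0.407 and 1.84, highest on day 14 (1.53 to 2.21). Heyl reads per Hes1 read were 0.00933 on day 0, from 4 Heyl reads, and 1.49 (1.26 to 1.77) at day 14. This ratio also carries the difference by length, as the group medians on day 14 were -0.55 for Hes1 and 0.41 for Heyl. Per length, Hes1 held 81.0% of the TPM of the 9 Hes and Hey genes on day 0 and 60.8% on day 14, and Heyl 0.231% and 22.4%. Hes6 held 15.5% and 15.2% in the same libraries and had its highest share, 34.6%, on day 2.

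**Figure D5:**
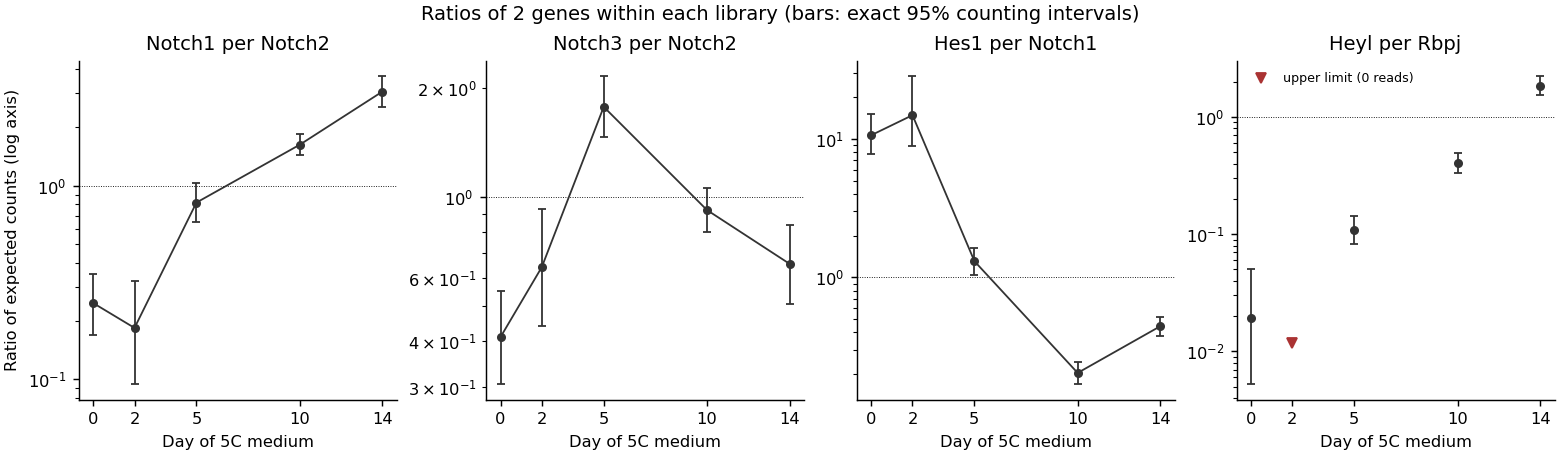
Ratio of expected counts of 2 genes within a library (y axis, log scale, own range in each panel) by day of 5C medium (x axis), with 1 library per point and exact 95% counting intervals as bars. Notch1 per Notch2 was highest on day 14 (3.06), Notch3 per Notch2 on day 5 (1.77), Hes1 per Notch1 was lowest on day 10 (0.204), and Heyl per Rbpj was highest on day 14 (1.84), where the red triangle on day 2 is the upper limit for 0 Heyl reads.

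Between neighbouring libraries, 4, 6, 2 and 5 calls were made on the steps to days 2, 5, 10 and 14. From day 2 to day 5, 5 of the 9 genes were higher (Notch1, Notch3, Jag2, Hey1 and Heyl) and Hes1 was lower, beside 19% of all genes higher and 12.5% lower. The call of Hey1 there is 0 against 2 reads, and without it this step had as many calls as the last. Relative to length the same 5 genes were higher and 0 lower. From day 5 to day 10 only Notch1 was higher and only Jag2 was lower, beside 12.8% and 9.5% of all genes. Relative to length, 2 were higher on this step (Notch1, 1.28, and Hey1, 1.02) and 2 lower (Jag2, -1.76, and Rbpj, -1.35). The Hey1 value is 2 against 6 reads, and the interval of its log2 change, -1.19 to 4.63, includes 0. From day 10 to day 14 Hes1 and Heyl were higher and Notch2, Notch3 and Jag2 were lower, beside 4.73% and 8.33% of all genes. The libraries also differed by length on this step, with a median of -0.48 and 16.6% of genes lower in the longest group, which holds the receptors, and a median of 0.35 in the second shortest, which holds Hes1. Relative to these medians Heyl (1.72), Notch3 (-1.02) and Jag2 (-2.70) were still past 2-fold, and Hes1 (0.65) and Notch2 (-0.53) were not.

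A wider list of 66 pathway genes was read beside the 10, and 56 of them passed the minimum count. On day 2, 6 were higher and 6 lower, beside 15.2% and 13.1% of all genes. On day 5, 9 were higher and 5 lower, beside 20.2% and 13.6%. On day 10, 19 were higher and 5 lower, beside 28.7% and 22.3%, or 12 and 6 relative to genes of the same length. On day 14, 16 were higher and 5 lower, beside 24.5% and 19.9%, or 13 and 6 relative to length, and the median log2 change was 0.39 beside 0.07 over all genes. The counts of the single lists that follow are to be read against the same shares of all genes. This does not hold for counts relative to length, which have no such share beside them.

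Both proteases of the first cut rose. Adam10 had 272, 1342 and 918 normalized counts on days 0, 10 and 14, with a log2 change of 2.30 (2.12 to 2.49) by day 10 and 1.51 relative to its length group. Adam17 had 96.3, 476 and 321, with a log2 change of 2.29 (2.00 to 2.63) and 1.50 relative to its length group. Of 7 γ-secretase genes, Ncstn, the substrate-binding subunit, rose on day 10 (1.10, 0.91 to 1.29) and Psenen, a small subunit needed for activation of presenilin, fell (-1.46, -1.71 to -1.23), but neither stood apart by more than 2-fold from genes of its length. Aph1b, a scaffold subunit, fell on day 14 (-1.31, -1.89 to -0.76). The first cut thus had both of its genes called higher on days 10 and 14, and the second had 1 gene called in each direction on both days.

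Among genes that act on the ligands, Mib2, a ubiquitin ligase that drives ligand uptake, rose to 154 normalized counts on day 10 and 190 on day 14 from 68.6 on day 0 (log2 change 1.16 and 1.46). Dlk1, a ligand-like protein without the domain that activates the receptors, had 1052, 448, 5697, 2934 and 2673 expected counts, with a log2 change of 1.01 (0.91 to 1.11) by day 10 and 1.20 (1.10 to 1.30) by day 14. Egfl7, a secreted protein of endothelial cells, had a log2 change of -1.22 (-2.02 to -0.53) by day 10, which was 0.26 relative to its length group and so of the opposite sign, and rose by day 14 (2.17, 1.73 to 2.69, and 3.21 relative to length). Lfng, a fringe that changes which ligand a receptor answers, had between 3 and 27 expected counts, and Nrarp, a feedback target, at most 4.

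Of 8 genes for receptor turnover compared, 3 were higher on day 10 and 2 on day 14, beside 28.7% and 24.5% of all genes, or 2 and 1 relative to length. Numb, an inhibitor of Notch that daughter cells can inherit unequally, rose 2.83-fold on day 10 (log2 1.50) and 2.34-fold on day 14, with log2 values of 1.04 and 0.95 relative to length, the second under 2-fold. Itch, a ubiquitin ligase, rose 2.42-fold on day 10, with 0.48 relative to length. Dtx3l, a Deltex relative, had 7.92, 157 and 77.8 normalized counts on days 0, 10 and 14. Its log2 change was 4.15 (3.31 to 5.54) by day 10 and 3.14 on day 14. No gene for receptor turnover was called lower on either day.

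Of the 8 co-activators, 3 were higher on day 10 and none lower, beside 28.7% and 22.3% of all genes, or 2 and none relative to length. Maml3, a Mastermind protein that joins the complex of Rbpj and the receptor domain, had 3, 113 and 39 expected counts on days 0, 10 and 14, with a log2 change of 4.36 (3.18 to 7.06) by day 10. The acetyltransferases Kat2b (2.37, 1.77 to 3.13) and Ep300 (1.48, 1.16 to 1.82, and 0.43 relative to length) were the others. Of the 15 co-repressors, 6 were higher on day 10 and 1 lower, beside the same shares of all genes, or 3 and 1 relative to length. Tle2, a Groucho co-repressor through which Hes proteins act, had 21.8, 254 and 368 normalized counts on days 0, 10 and 14, with a log2 change of 3.48 (2.92 to 4.24) by day 10 and 4.02 (3.46 to 4.77) by day 14. Its relative Tle3 also rose (1.13 and 1.50), whereas Tle1 fell (-1.01 and -1.35). Spen, a scaffold that holds Rbpj in its repressing state, had a log2 change of 2.01 (1.62 to 2.47) by day 10, and the co-repressors Ncor1 and Kdm5a had 1.35 and 1.50. Relative to length, Ncor1 (0.89), Kdm5a (0.46) and Tle3 (0.93) were under 2-fold on day 10, whereas Tle3 was 1.32 on day 14. Of the Groucho genes, Tle2 was thus higher and Tle1 lower on both days also relative to length.

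The genes nearest in pattern to Notch1 and Hes1 were taken by the root mean square difference of the log2 changes on the 4 later days, compared over the 8256 genes that reached 100 expected counts in some library. For Notch1 these were Arhgef26 (0.24), Agrn (0.27), Bhlhe22 (0.28), Col5a3 (0.30) and Dclk2 (0.37). For Hes1 they were Tmem147 (0.12), Mrps9 (0.14), Rbm42 (0.15), Ing2 (0.15) and Mzt2 (0.15). Agrn, a matrix protein of nerve-muscle contacts, had 358, 172, 1152, 4879 and 3983 expected counts. Likeness over 4 changes that share the day 0 library is a description of these libraries.

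Markers of cell types are given beside these values, as sums over the genes of each list. All 8 fibroblast markers had reads in every library, and their summed normalized count was between 40348 and 82550. Vim gave 29392 of 53082 on day 0 and 40816 of 82550 on day 14, so the sum hides markers that moved apart. Dcn, Pdgfra and Fbln1 were higher than on day 0 on days 2, 5, 10 and 14. Pdgfrb was lower on days 2, 5 and 10, Thy1 on days 10 and 14, and Col1a1 on day 2. Of 8 neuron markers, Rbfox3 was at 0 in all 5 libraries and Dcx from day 2 on, and the summed normalized count was between 248 and 668, highest on day 0, when Stmn2 and Map2 made up most of it. Stmn2 and Map2 were lower on days 5, 10 and 14, while Tubb3, Syp and Snap25 were higher on those days. Tubb3, a neuronal tubulin, had 22.1, 39.8, 91.8, 84.2 and 161 normalized counts. Syp, a synaptic vesicle protein, had 0, 2.74, 10, 60.2 and 36.4 expected counts, and Snap25, a protein of vesicle fusion, had 0 on days 0 and 2 and between 7.01 and 22 later. In TPM the sum of the list was 103 on day 0 and 127 on day 14, so the order of these libraries depends on the scale. All 8 markers of Schwann cells and neural crest were higher on days 10 and 14, with a summed normalized count of 79.9, 174, 915, 5448 and 7061. This list was high in the libraries in which Notch1 and Heyl were high. Sox10, its defining factor, went from 7 expected counts on day 0 to 2230 on day 14, and Heyl reads per Sox10 read were 0.571 (0.123 to 2.25) at day 0, 0.187 on day 5, 0.0974 (0.0815 to 0.116) at day 10 and 0.150 (0.133 to 0.168) at day 14.

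The astrocyte list, of 6 genes, summed to 24.7 on day 0 and between 263 and 415 later, with Gjb6 at 0 in all libraries. Aldh1l1 alone gave 250 of 284 on day 2 and 192 of 263 on day 5, and Gfap gave 220 of 415 on day 10. On day 2 Aqp4 was at 0 and Slc1a3 had 14.5 normalized counts, beside 19.8 on day 0. Of 8 macrophage markers, 8 were higher on days 2 and 5 and 6 on days 10 and 14, with a summed normalized count of 215, 1726, 3437, 1822 and 1303, mostly Lyz2. In the same libraries Notch3 had 66.3, 90.5, 267, 276 and 96.5 normalized counts. The mural cell list, of 6 genes, summed to 33089, 3566, 933, 525 and 249, and Acta2 gave 32045 of the 33089 on day 0. Rgs5 in this list had 6.93, 18.1, 12.3, 2.86 and 2.68 normalized counts and was not highest on day 0. Jag1 was highest on day 0, as this sum was, and Notch3 was highest on days 5 and 10. The endothelial list, of 6 genes, summed to 273 on day 0, of which Kdr gave 236, and 10.7 on day 14, with Cldn5 at 0 in every library. The epithelial list, of 6, summed to 397, 481, 115, 32.1 and 21.5, and the keratin gene Krt19 gave 348 of the 397 on day 0. Epcam and Cdh1 in this list did not fall, with 0, 1, 4, 5 and 8 and with 0, 0, 2, 1 and 2 expected counts. The part of these cell types in the Notch, ligand and target values was not tested.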

How the data were processed

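RNA-seq libraries of MEFs and of cells after 2, 5, 10 and 14 days in 5C medium were used, 1 per time point, grouped by the day in the labels. The authors deposited RSEM expected counts per gene, not scaled for library size, and TPM values, which are divided by gene length and sum to 1000000 per library. Bowtie, RSEM and mm10 are named in the submitters' processing notes, with versions not given in the sources used here. The labels name a kit without stating strand. The FPKM values in the same tables were not used.

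Symbols and coordinates came from GENCODE M21 (GRCm38), which matched 27247 of 27729 identifiers. Expected counts were rounded to whole numbers for library sizes by TMM in edgeR 4.0.16 (R 4.3.3). Intervals (95%, exact Clopper-Pearson) were made from both libraries' rounded counts without pseudocount. A count of 3, the floor, was 0.771 to 1.33 per 1000000 counts. Length groups are 10 equal groups of the genes compared. The code was tested on simulated counts.

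The 10 genes and the lists of pathway and marker genes were chosen with earlier results of these data known. Named pathway genes passed 2-fold on day 10 or 14 with 50 or more expected counts, or stand in a list described by its counts. All ratios within a library except Hes1 per Notch1 were chosen after the values were seen. Alternatives were other scalings (DESeq2 1.42.0 size factors, total counts, TMM without Gm42418 and Lars2), TPM, other pseudocounts, filters and thresholds, and centring on length, which for the steps between neighbouring libraries was added after the values were seen.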

Additional observations from a re-analysis of the deposited data

How the results depend on the processing

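No replicate exists to be left out, and the depth of 2253748 to 3890334 counts limits Jag2, Dll1 and Hey1. No paired analysis was possible because each time point has 1 library. DESeq2 size factors and TMM without Gm42418 and Lars2 moved no count of Notch genes, role median or share of all genes by more than 1.5 times. With total counts, 1 Notch gene was lower on day 10, 0 on the step to day 5, 4 were higher on the step to day 10 and 1 on the step to day 14, and 7.55% (day 5) and 14.5% (day 10) of all genes were lower. In TPM, whose median of all genes moved by -0.20, 0.61, 1.09 and 0.78 (log2) on days 2, 5, 10 and 14, 0 Notch genes were lower on days 5, 10 and 14 and on the steps to days 5 and 10, 4 were higher on the step to day 10 and 0 on the step to day 14. In TPM the shares of all genes higher were 7.90%, 32.0%, 52.9% and 41.6% on days 2, 5, 10 and 14, and lower 3.98%, 6.77% and 6.97% on days 5, 10 and 14. The TPM changes from day 0 of Jag1 on day 10 (0.29) and Hes1 on day 14 (0.085), both called lower in normalized counts, reversed. Among changes from day 0 not past 2-fold, Notch2 on day 5 (0.53) and day 14 (0.66) and Rbpj on day 14 (0.52) also reversed in TPM. With total counts these changes were 0.27, 0.23 and 0.03, also of the opposite sign. With no filter, 13.0%, 18.1% and 15.1% of all genes were higher on days 5, 10 and 14, and 8.41%, 8.79%, 12.9% and 12.1% lower on days 2, 5, 10 and 14, over more genes. With a 4-fold threshold, 0 Notch genes were higher on day 2, 2 higher and 1 lower on day 5, 1 lower on day 10 and 0 lower on day 14. The share of all genes past 4-fold is not given, so these counts cannot be set against it. Without a pseudocount, 1 Notch gene was lower on day 2, as genes at 0 drop out. The receptor median on day 10 was 2.51 with total counts, 2.85 in TPM and 1.00 relative to length. The ligand median reversed to -1.11 with a minimum of 50 counts, which leaves Jag1, and to -0.31 relative to length, where Dll1 has no length group and Jag1 and Jag2 (0.40 without centring) are left, and the target median to 1.15 with that minimum, which leaves Hes1 and Heyl. Centring the steps on length, chosen after seeing the data, gave 0 lower on the step to day 5, 2 higher and 2 lower on the step to day 10 and 1 higher on the step to day 14. Hes1 per Notch1 in TPM was 74.0, 99.4, 10.9, 1.54 and 3.52 in order of time.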
